A study of Sus scrofa with 5 samples.

Results

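Sensory neurons of the pig dorsal root ganglion that carried the transcript of the BDNF receptor NTRK2 were compared with those that carried the transcript of the neurotrophin 3 receptor NTRK3. All nuclei considered were nearly devoid of KIT and SCN10A, with under 2 unique molecular identifiers (UMIs, each standing for 1 captured RNA molecule) of either gene. The NTRK2 side had at least 2 UMIs of NTRK2, at least 5 NTRK2 UMIs per 10000 UMIs of the nucleus, and under 2 UMIs of NTRK3. The NTRK3 side had at least 3 UMIs of NTRK3, at least 5 per 10000, and under 2 UMIs of NTRK2. Of 2189 nuclei in all, 174 (7.95%) formed the NTRK2 side and 66 (3.02%) the NTRK3 side, which makes 240 members.

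Thoracic and lumbar ganglia came from 5 male Landrace pigs, in a single group of unstated age with no treatment named, with 80 mg of tissue per sample. Nuclei were isolated by several protocols that differed in the detergent used and in how debris was removed, some with an enrichment for the neuronal protein NeuN, and were sequenced from the 3' end of their RNA. The barcodes ended in 6 different numbers, called barcode endings below, no barcode sequence was shared between endings, and nothing tied an ending to a pig or a protocol. All nuclei were therefore 1 pooled sample, no test between sides was possible, and the 95% intervals below reflect counting error alone and say nothing about variation from pig to pig.

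NTRK2 encodes TrkB, the receptor for BDNF and neurotrophin 4, and NTRK3 encodes TrkC, the receptor for neurotrophin 3. In mouse ganglia TrkB marks low-threshold mechanoreceptors of thinly myelinated (A-delta) and some thickly myelinated (A-beta) fibres, whereas TrkC marks other A-beta mechanoreceptors and the proprioceptors that supply muscle. SCN10A encodes a sodium channel best known from nociceptors, and KIT a receptor tyrosine kinase.

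The sides were set by NTRK2, NTRK3, KIT and SCN10A, so their values only describe the choice. On the NTRK2 side, NTRK2 stood at 1734 counts per 1000000 UMIs (CPM) and NTRK3 at 31.4, and on the NTRK3 side NTRK2 stood at 36.3 and NTRK3 at 1543 CPM. SCN10A stood at 22.3 and 17.1 CPM, and KIT at 16.2 and 42.7 CPM, on the NTRK2 and the NTRK3 side. A member held a median of 6 UMIs of its own receptor on either side. The lowest level that entered was 5.09 per 10000 on the NTRK2 side, where 63 nuclei failed by level alone with up to 4.98, and 5.61 on the NTRK3 side, where 11 nuclei failed with up to 4.22. On the NTRK2 side, 36 nuclei sat at the minimum of 2 UMIs and 73 further nuclei were 1 UMI short, and on the NTRK3 side 9 sat at the minimum of 3 and 25 were 1 short. The other receptor was at 0 UMIs in 143 of the 174 and 49 of the 66 nuclei, and at 1 UMI in the remainder.

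Nuclei of both sides came unevenly from the barcode endings. A nucleus of the NTRK2 side held a median of 3876.5 UMIs (630 to 32792) and one of the NTRK3 side 5107 (1028 to 44995), together 988349 and 468598 UMIs. Endings 1, 3, 4, 5 and 6 held 47, 89, 7, 16 and 15 nuclei of the NTRK2 side and 3, 41, 6, 6 and 10 of the NTRK3 side, and ending 2 held none. A level of the NTRK3 side in ending 1 therefore rests on 3 nuclei, and only endings 3 and 6 had at least 10 nuclei on both sides and gave a ratio of their own. On the NTRK3 side, 1 nucleus held 23523 of the 30163 UMIs of ending 1. Another held 44995 of the 72103 UMIs of ending 4. NTRK3-side levels in these 2 endings, and ranges or overlaps that use them, thus rest mostly on a single nucleus each. The share of UMIs from the mitochondrial genome was 8.71% on the NTRK2 side and 3.19% on the NTRK3 side, and its median per nucleus was 2.63% and 0.300%. This share differed within ending 3 (17.6% against 5.75%) and was at most 0.0883% on either side of endings 5 and 6. Its part in the differences between sides was not tested.

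Markers of touch and muscle afferents followed the sides only in part, so the sides are named by their receptor and not as cell types. Proprioceptor markers, a list of 11 genes known mostly from mouse, summed to 143 CPM on the NTRK2 side (89.4 to 239 over the 5 endings) and 999 CPM on the NTRK3 side (646 to 3647). The 3647 CPM was the level of ending 1, where 1 nucleus held 56 UMIs of PVALB. Only 4 members, ETV1, NXPH1, PVALB and SPP1, had enough UMIs for a ratio, each at least 2-fold higher on the NTRK3 side. CHAD was at 0 on both sides and WNT7A at 0 on the NTRK2 side. POU4F3 went the other way, at 0 on the NTRK3 side and found in 6 of 174 NTRK2-side nuclei. At least 2 different proprioceptor markers were found in 21 of 174 nuclei of the NTRK2 side (12.1%) and in 40 of 66 of the NTRK3 side (60.6%), which leaves a part of the NTRK3 side without them at this depth. The A-delta touch markers CACNA1H, CADPS2 and COLQ summed to 369 CPM on the NTRK2 side (176 to 734) and 177 CPM on the NTRK3 side (99.5 to 508). The list of A-beta touch markers summed to 582 CPM (468 to 767) and 866 CPM (735 to 995). Most of the sum on the NTRK3 side came from ESRRG (489 CPM, against 104). Of its 5 measured members, RET was at least 2-fold higher on the NTRK2 side and CALB2 and ESRRG on the NTRK3 side, and the median log2 ratio of 0.41 lay toward the NTRK2 side, opposite to the sum. Of the other members, MAFA was at 0 on the NTRK3 side and CALB1 at 0 on the NTRK2 side. C-fibre markers were not absent: they summed to 1093 CPM (685 to 1502) and 691 CPM (530 to 889), compared with 3983 CPM in the 880 nuclei with at least 2 UMIs of SCN10A. A C-fibre marker with at least 2 UMIs was found in 107 of 174 (61.5%) and 38 of 66 nuclei (57.6%).

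Transcripts of other cell types were present at low levels on both sides. Their sums over all endings were mostly higher on the NTRK2 side, but not in every ending. Pan-neuronal markers summed to 17653 CPM (5591 to 34276 over endings) and 11671 CPM (6031 to 54404), with POU4F1 at 0 on the NTRK3 side. Their order turned in endings 1 and 6, where the NTRK3 side held 54404 and 10524 CPM and the NTRK2 side 34276 and 5591 CPM. Satellite glia markers summed to 1309 CPM (421 to 3280 over endings) and 869 CPM (381 to 1886), and Schwann cell markers to 1065 CPM (520 to 2236) and 416 CPM (254 to 569), while the SCN10A nuclei held 781 and 1007 CPM of these lists. The satellite glia order turned in endings 3 and 6, at 728 against 755 CPM and 421 against 459 CPM. Schwann cell markers were higher on the NTRK2 side in each ending. Of the Schwann list, SCN7A, a sodium channel relative, stood at 513 against 122 CPM. Fibroblast markers summed to 176 and 115 CPM, vascular markers to 89.0 and 128 CPM, and immune markers to 314 and 205 CPM, with CD68 at 0 on both sides and C1QA and CD3E at 0 on the NTRK3 side. Fibroblast markers were lower on the NTRK2 side in endings 3 and 6, at 74.0 against 92.1 CPM and 117 against 153 CPM. No nucleus of the NTRK2 side and 1 of the NTRK3 side had over 1% satellite glia markers. The part of these transcripts in the differences below was not tested.

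The sides differed broadly. Of 5620 genes that reached 50 UMIs when the sides were added together, 947 (16.9%) were at least 2-fold higher on the NTRK2 side and 573 (10.2%) at least 2-fold higher on the NTRK3 side, in the ratio of summed CPM. The median gene had a log2 ratio (NTRK2 over NTRK3 side) of 0.04. Without ending 1, which held 47 NTRK2-side but 3 NTRK3-side nuclei, the first count was 525 of 4558 genes and the second 436. Within ending 3 alone the order turned, with 328 and 376 of 2567 genes. All 5 ending levels of the NTRK2 side lay above all 5 of the NTRK3 side for 106 genes (1.89%), and the reverse held for 72 genes (1.28%). A stricter rule asked for 100 UMIs, a 2-fold difference also after weighting within endings, the same direction in endings that gave a ratio, and no nucleus with over 25% of the UMIs of the higher side. Of 2729 genes that could pass it, 182 (6.67%) did so toward the NTRK2 side and 197 (7.22%) toward the NTRK3 side. The 12 genes with the largest such ratios in each direction and the leading members of 14 functional lists are described below.

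**Figure D1:**
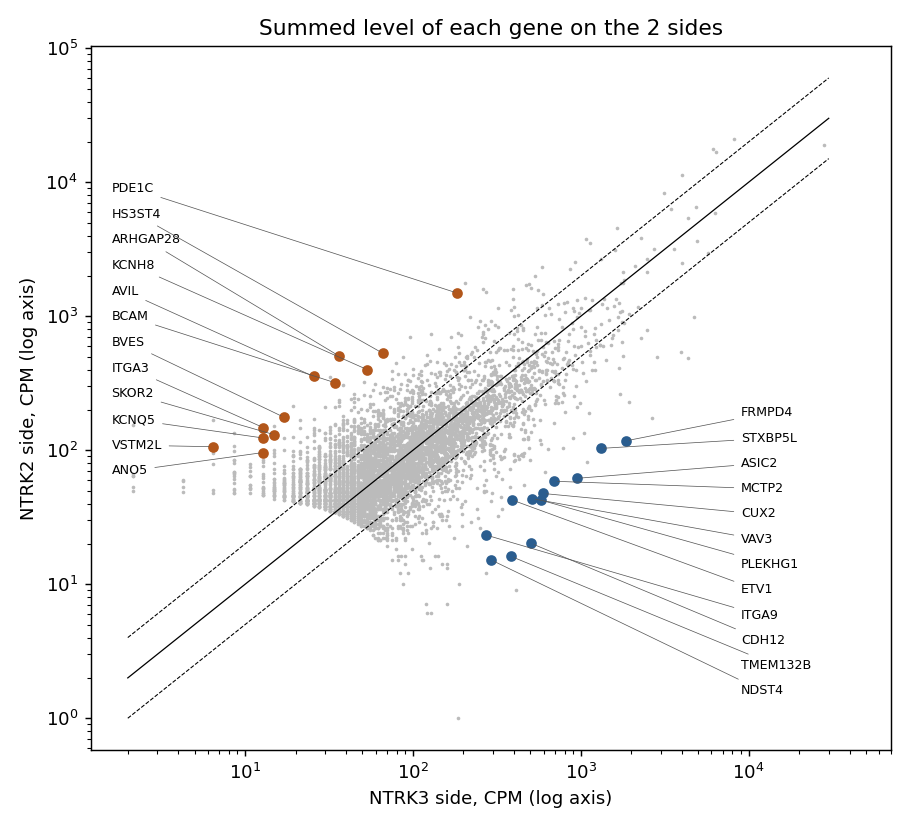
Summed level of each of the 5620 genes in CPM on the NTRK3 side (x axis, log) and on the NTRK2 side (y axis, log). The solid line marks equal levels, the dashed lines a 2-fold difference, and the named points are the 12 genes with the largest ratios in each direction (orange, NTRK2 side; blue, NTRK3 side); a gene at 0 on a side is drawn at 3 counts.

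The genes with the largest ratios toward the NTRK2 side included ARHGAP28, AVIL, PDE1C and SKOR2. ARHGAP28 encodes a GTPase-activating protein (chromosome 6, 100494385 to 100681008, Sscrofa11.1). It stood at 264, 597, 212, 779.5 and 584 CPM in endings 1, 3, 4, 5 and 6 of the NTRK2 side, and at 0, 46.1, 55.5, 31.7 and 17.0 CPM on the NTRK3 side. All 5 levels of the NTRK2 side were the higher ones, and over all nuclei ARHGAP28 was 13.9-fold (95% interval 8.60 to 24.1) higher, at 505 against 36.3 CPM. AVIL, the actin-binding protein advillin of sensory neurons, stood at 558, 209, 408, 342 and 358 CPM and at 0, 36.8, 27.7, 63.5 and 0 CPM in the same endings, again with no overlap, 13.9-fold (95% interval 7.84 to 27.1) higher overall. Without ending 3 its log2 ratio was 4.83 in place of 3.79. The laminin receptors ITGA3, an integrin subunit, and BCAM, an immunoglobulin-family adhesion molecule, were 11.5-fold (95% interval 5.17 to 32.0) and 9.36-fold (95% interval 5.68 to 16.6) higher. ITGA3 had its highest level, 497 CPM, in ending 5 and its lowest, 49.0 CPM, in ending 4, which was still above the 31.7 CPM that was the highest on the NTRK3 side.

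PDE1C, a calmodulin-dependent phosphodiesterase that breaks down cAMP and cGMP, was the most abundant of the 12 (chromosome 18, 40818316 to 41410555). It stood at 606, 1810.1, 685, 1945 and 2289 CPM in endings 1, 3, 4, 5 and 6 of the NTRK2 side and at 0, 267, 180.3, 127 and 93.4 CPM on the NTRK3 side, 8.12-fold (95% interval 6.53 to 10.2) higher overall. It was found in 85.6% of NTRK2-side and 47.0% of NTRK3-side nuclei, and in 61.7% and 22.7% once each nucleus was thinned to 1000 UMIs (7 shallower NTRK2-side nuclei left out). BVES, a cAMP-binding Popeye domain protein of the cell membrane, was 10.3-fold (95% interval 5.12 to 24.3) higher. The log2 ratio of BVES, 3.37, was 4.22 without ending 3 and 2.18 in ending 3 alone. HS3ST4, which adds 3-O-sulfate groups to heparan sulfate, stood at 529 against 66.2 CPM (8.0-fold, 95% interval 5.57 to 11.9). Its level in ending 4 of the NTRK2 side, 49.0 CPM, lay below the 69.4 CPM of the NTRK3 side there, so that the ending levels overlapped. VSTM2L, a protein with an immunoglobulin V-set domain, stood at 106 CPM on the NTRK2 side and had 3 UMIs on the NTRK3 side, all in ending 3, a level that cannot be told from background at this depth. Its ratio of 16.6-fold (95% interval 5.52 to 81.8) is uncertain for that reason, and within ending 3 its log2 ratio was 2.22 compared with 4.05 overall. ANO5, a member of the anoctamin family, was 7.51-fold (95% interval 3.32 to 21.0) higher, with levels between 37.1 and 120.0 CPM on the NTRK2 side and up to 25.5 CPM on the NTRK3 side.

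SKOR2 was the gene of this set with the lowest level in the SCN10A nuclei. It encodes a corepressor of the SKI family (chromosome 1, 96795362 to 96842360) and stood at 58.8, 184, 97.9, 163 and 101 CPM in endings 1, 3, 4, 5 and 6 of the NTRK2 side. On the NTRK3 side it was seen in ending 3 alone, at 32.2 CPM, and had 0 UMIs in the other 4 endings. Over all nuclei it was 8.74-fold (95% interval 4.12 to 22.2) higher, at 131 against 14.9 CPM, while the SCN10A nuclei held 4.51 CPM. SKOR2 was detected in 39.1% of nuclei of the NTRK2 side, 4.55% of the NTRK3 side and 1.82% of the SCN10A nuclei, although the last were the deepest (median 7829 UMIs). After thinning to 1000 UMIs the shares were 11.4%, 1.52% and 0.114%.

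The genes with the largest ratios toward the NTRK3 side included CDH12, TMEM132B, FRMPD4 and ETV1. CDH12, a classical cadherin (chromosome 16, 9985759 to 10975489), stood at 99.5, 746, 97.1, 413 and 433 CPM in endings 1, 3, 4, 5 and 6 of the NTRK3 side and at 7.35, 25.5, 0, 59.4 and 0 CPM on the NTRK2 side. The groups did not overlap, and overall CDH12 was 24.9-fold (95% interval 15.8 to 41.5) higher on the NTRK3 side, at 504 against 20.2 CPM. TMEM132B, a transmembrane protein, and NDST4, an enzyme that removes acetyl groups from heparan sulfate and adds N-sulfate, were 23.6-fold (95% interval 14.1 to 42.2) and 19.3-fold (95% interval 11.3 to 35.4) higher on the NTRK3 side. For NDST4 the lowest NTRK3-side level was 178 CPM (ending 6) and the highest NTRK2-side level 25.5 CPM (ending 3). ITGA9, an integrin subunit, was 11.7-fold (95% interval 7.49 to 19.2) higher on the NTRK3 side, at 66.3, 276, 291, 317 and 297 CPM in the 5 endings.

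FRMPD4, a postsynaptic scaffold protein that binds PSD-95 (chromosome X, 8625039 to 9451433), was the most abundant of this set. Its levels on the NTRK3 side lay close together, at 1658, 2077, 1817, 1936 and 1469.5 CPM in endings 1, 3, 4, 5 and 6, while the NTRK2 side held 91.8, 148, 49.0, 148 and 77.9 CPM. FRMPD4 was 15.7-fold (95% interval 13.0 to 19.3) higher on the NTRK3 side and was detected in 83.3% of its nuclei, against 35.6% of the NTRK2 side and 27.2% of the SCN10A nuclei. STXBP5L, the tomosyn-2 protein that restrains vesicle fusion, was 12.8-fold (95% interval 10.3 to 15.9) higher, at 1317 against 103 CPM, and MCTP2, a membrane protein with C2 domains, 11.8-fold (95% interval 8.89 to 15.9) higher (log2 ratio -3.56, or -4.16 without ending 3). The guanine nucleotide exchange factors PLEKHG1 and VAV3 stood at 576 against 42.5 CPM (13.6-fold) and 510.0 against 43.5 CPM (11.7-fold). In both, the 3 NTRK3-side nuclei of ending 1 gave the lowest level of their side, 99.5 and 166 CPM, still above each NTRK2-side ending.

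Of each set of 12, 9 genes had no overlap between the 5 ending levels of the sides, beside 1.89% of all 5620 genes toward the NTRK2 side and 1.28% toward the NTRK3 side. The direction was the same in all 5 endings for 10 of the NTRK2-side and 12 of the NTRK3-side genes. Since these genes were chosen for their ratios in the same nuclei, the counts describe them and are no support.

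**Figure D2:**
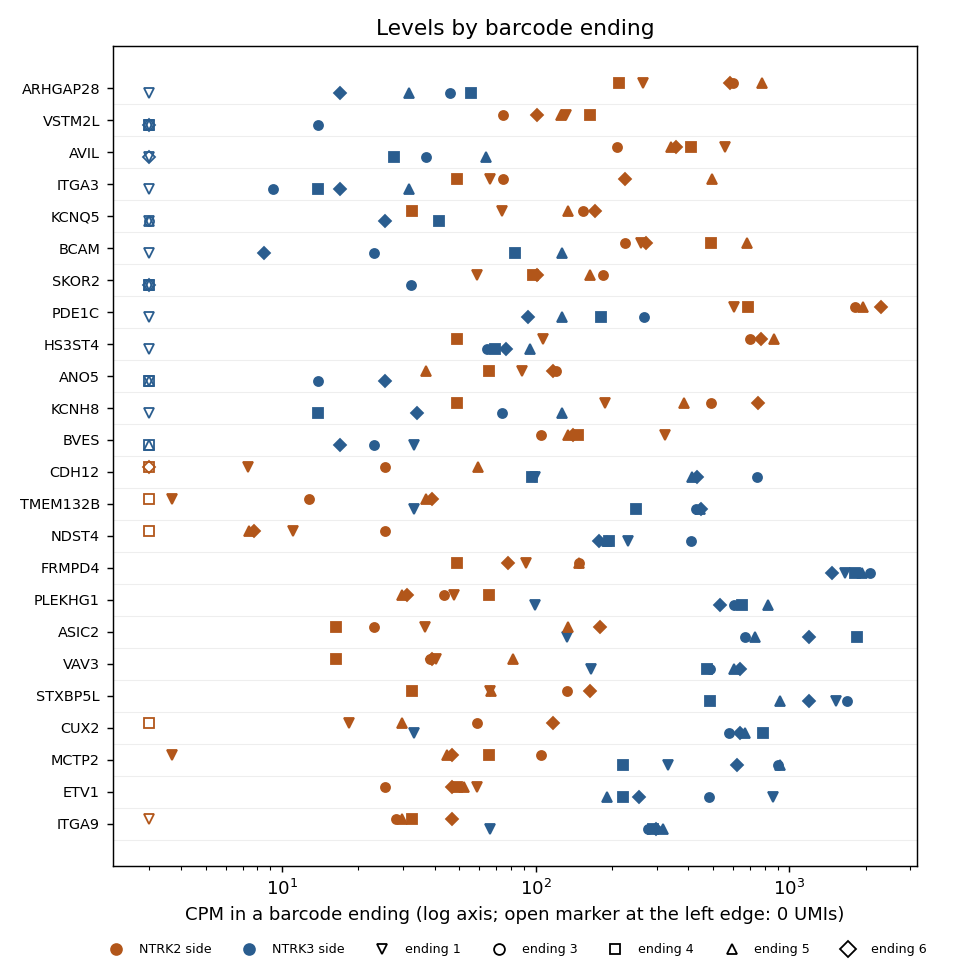
Level in CPM (log axis) of the 12 NTRK2-side and 12 NTRK3-side genes in barcode endings 1, 3, 4, 5 and 6, 1 marker shape per ending, for the NTRK2 side (orange) and the NTRK3 side (blue). Open markers at the left edge stand for 0 UMIs. In 9 genes of each set the 2 colours do not overlap, beside 1.89% (NTRK2 side higher) and 1.28% (NTRK3 side higher) of all 5620 genes.

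Levels in other nuclei stand here for reference. Each of the 12 NTRK3-side genes was at least 2-fold higher on its own side than in the SCN10A nuclei. Of the 12 NTRK2-side genes this held for 5 (BCAM, SKOR2, HS3ST4, ANO5 and KCNH8), and ITGA3, KCNQ5 and BVES were at or above the NTRK2-side level in the SCN10A nuclei. KCNQ5 stood at 819 CPM there, compared with 123 CPM on the NTRK2 side, and ARHGAP28 at 406 CPM. A further 37 nuclei passed the KIT and SCN10A limits and carried at least 2 UMIs of both receptors, with a median of 10835 UMIs. In these, FRMPD4 stood at 1588 CPM and CDH12 at 247 CPM. Of the 12 NTRK3-side genes, 9 lay nearer in CPM to the NTRK3-side than to the NTRK2-side level, and CDH12, NDST4 and PLEKHG1 nearer to the NTRK2-side level, while on a log scale all 12 lay nearer to the NTRK3-side level. Of the 12 NTRK2-side genes, 11 lay nearer in CPM to the NTRK3-side level too, with PDE1C at 289.8 and SKOR2 at 7.39 CPM. KCNQ5 was the exception, and on a log scale VSTM2L was another.

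Ion channel lists held members that were higher on either side. Counts of list members below stand beside 16.9% of all genes at least 2-fold higher on the NTRK2 side and 10.2% on the NTRK3 side, and no list was tested against these shares. Of 9 sodium channel and sodium channel modulator genes measured, 1 was at least 2-fold higher on each side, and the median log2 ratio was -0.47. SCN9A, the channel Nav1.7 that amplifies small depolarizations, stood at 569, 462, 179.5, 794 and 809.9 CPM in endings 1, 3, 4, 5 and 6 of the NTRK2 side and at 66.3, 189, 69.3, 190.4 and 110.4 CPM on the NTRK3 side, with the 179.5 CPM of ending 4 overlapping the NTRK3-side range. It was 3.95-fold (95% interval 3.06 to 5.17) higher on the NTRK2 side, with a log2 ratio of 1.98 that was 2.61 without ending 3. The SCN10A nuclei held SCN9A at 872 CPM, above the 565 CPM of the NTRK2 side. SCN8A, the channel Nav1.6 of nodes of Ranvier, was higher on the NTRK3 side at 444 against 192 CPM, a log2 ratio of -1.21 that was -0.45 within ending 6. SCN1A, a channel of large-fibre neurons, was 1.65-fold (95% interval 1.34 to 2.02) higher on the NTRK3 side.

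Potassium and HCN channels split, with 12 of 39 measured members at least 2-fold higher on the NTRK2 side and 8 on the NTRK3 side (median log2 ratio 0.19). KCNQ5, a subunit of the M-current, and KCNH8, a voltage-gated channel of the ELK group, were 9.64-fold (95% interval 4.3 to 26.8) and 7.49-fold (95% interval 5.00 to 11.7) higher on the NTRK2 side. KCNQ5 rested on 6 UMIs on the NTRK3 side, and its log2 ratio was 6.07 in ending 3 and 2.56 in ending 6. Over all endings it was 3.27, or 2.12 without ending 3 and 4.10 without ending 4. KCNC2, the fast channel Kv3.2, was 5.53-fold (95% interval 3.07 to 11.0) higher on the NTRK2 side at 142 against 25.6 CPM (log2 ratio 2.47, or 1.78 without ending 3). The delayed rectifier KCNB2 (Kv2.2) was the most abundant potassium channel gene named here and stood at 597, 3054, 1373, 1873 and 1988 CPM in the 5 endings of the NTRK3 side and 309, 949.7, 326, 475 and 1059 CPM on the NTRK2 side, with the lowest NTRK3-side level in ending 1 inside the NTRK2-side range. KCNB2 was 3.35-fold (95% interval 3.04 to 3.69) higher on the NTRK3 side, and KCNH1 3.04-fold (95% interval 2.32 to 4.00) higher. As a mean of CPM over nuclei, KCNH1 fell short of 2-fold (log2 ratio -0.90, compared with -1.60), as it did after thinning (-0.67). KCNA1, the Kv1.1 channel of large-fibre axons (117 against 98.2 CPM), had a ratio interval that included 1.

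Of 12 calcium channel genes measured, 3 were at least 2-fold higher on the NTRK2 side and 2 on the NTRK3 side, with a median log2 ratio of -0.08. CACNA1H, the T-type channel Cav3.2 that marks A-delta touch neurons in mouse, stood at 44.1, 143, 81.6, 304 and 296 CPM in the 5 endings of the NTRK2 side and 0, 13.8, 83.2, 222 and 0 CPM on the NTRK3 side. Ending 5 had the highest level on the NTRK3 side (222 CPM), which overlapped the other side, and ending 6 had none. Overall CACNA1H was 4.50-fold (95% interval 2.69 to 8.08) higher on the NTRK2 side, a log2 ratio of 2.17 that was 1.54 without ending 6. The beta subunits CACNB2 (4.17-fold, 95% interval 3.30 to 5.33) and CACNB3 (4.56-fold, 95% interval 2.72 to 8.18) were also at least 2-fold higher on the NTRK2 side. CACNB4 (2.94-fold, 95% interval 2.58 to 3.36) and CACNA2D3, an alpha2delta subunit (5.89-fold, 95% interval 4.97 to 7.0), were higher on the NTRK3 side, CACNA2D3 at 1114 against 189 CPM. Without the nuclei with TRPM8, CACNB2 had a log2 ratio of 0.97 and no longer reached 2-fold, and CACNB3 had a log2 ratio of 0.12 within ending 6.

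PIEZO2, the mechanically gated channel of touch and proprioception, was abundant on both sides. It stood at 764, 1309.7, 228, 2465 and 1947 CPM in endings 1, 3, 4, 5 and 6 of the NTRK2 side and at 332, 765, 1207, 1143 and 1249 CPM on the NTRK3 side, and was 1.40-fold (95% interval 1.26 to 1.56) higher on the NTRK2 side. A larger share of nuclei carried it on the NTRK3 side, 92.4% against 69.5%, or 57.6% against 49.1% after thinning, and the SCN10A nuclei carried it in 54.4%. Level and share gave opposite orders, and the ending levels of the sides overlapped, so no order is read from the share. Of 13 mechanical, acid-sensing and TRP channels measured, none was at least 2-fold higher on the NTRK2 side and 3 were so on the NTRK3 side, ASIC1, ASIC2 and ANO1, with a median log2 ratio of -0.04. ASIC2, an acid-sensing channel subunit, stood at 133, 668, 1845, 730.0 and 1198 CPM in the 5 endings of the NTRK3 side and 36.7, 23.0, 16.3, 134 and 179 CPM on the NTRK2 side, 15.4-fold (95% interval 11.8 to 20.5) higher. Its only overlap was the 133 CPM of the 3 nuclei in ending 1. ANO1, a calcium-activated chloride channel, was 5.20-fold (95% interval 3.36 to 8.24) higher on the NTRK3 side, but its log2 ratio of -2.38 was -0.90 without nuclei with a C-fibre marker. That filter, used again below, left out 107 of 174 NTRK2-side and 38 of 66 NTRK3-side nuclei, so its ratios rest on fewer UMIs.

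**Figure D3:**
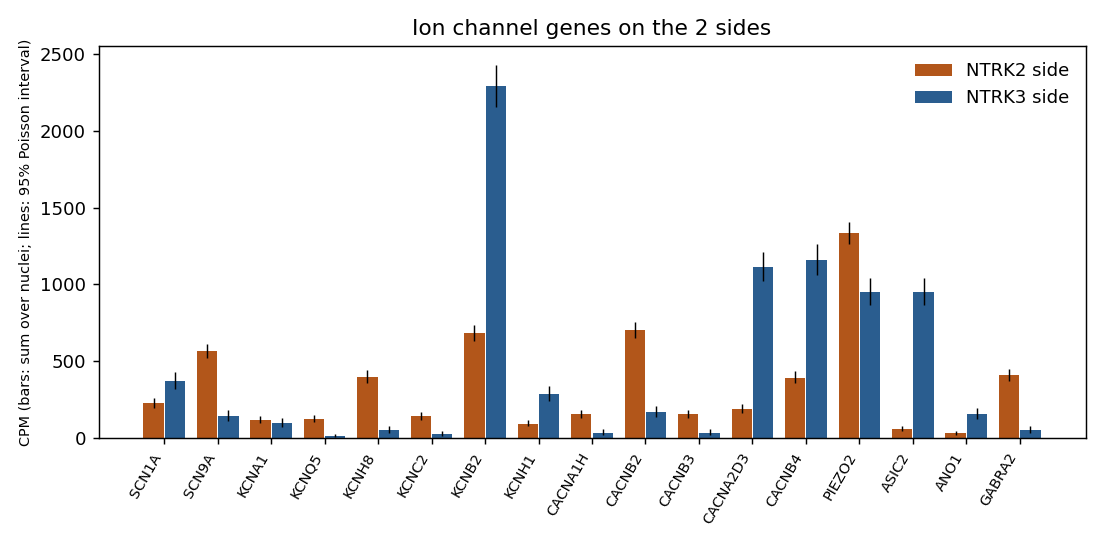
Summed level in CPM of ion channel and receptor genes named in the text on the NTRK2 side (orange) and the NTRK3 side (blue). Bars are pooled levels from 0 and lines are 95% Poisson intervals for counting error; SCN9A, CACNB2 and GABRA2 stand higher on the NTRK2 side and KCNB2, CACNA2D3, CACNB4 and ASIC2 on the NTRK3 side.

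Among transmitter receptors, GABRA2, an alpha subunit of the GABA-A receptor, was the 1 of 21 measured members at least 2-fold higher on the NTRK2 side. It stood at 429.7, 511, 245, 297 and 241 CPM in the 5 endings there and 66.3, 73.7, 55.5, 31.7 and 8.49 CPM on the NTRK3 side, with no overlap, 7.96-fold (95% interval 5.27 to 12.6) higher. The glutamate receptor genes GRIA3, GRIA4, GRID1, GRIK4, GRM5 and GRM8 were at least 2-fold higher on the NTRK3 side without meeting the stricter rule, and the list had a median log2 ratio of 0.07. Of 7 measured G protein coupled receptors, 4 were at least 2-fold higher on the NTRK2 side and 1, TACR1, on the NTRK3 side (median log2 ratio 1.07). Of these, LPAR1, a receptor for lysophosphatidic acid, met the stricter rule at 123 against 55.5 CPM (2.22-fold, 95% interval 1.45 to 3.54). Its log2 ratio of 1.15 was 0.99 without ending 4 and 0.86 without nuclei with a C-fibre marker, both under 2-fold.

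Release genes gave a mixed picture: of 28 measured, 8 were at least 2-fold higher on the NTRK2 side and 4 on the NTRK3 side, with a median log2 ratio of 0.05. SLC17A6, the vesicular glutamate transporter VGLUT2, was 3.26-fold (95% interval 2.09 to 5.29) higher on the NTRK2 side, as were the calcium sensor gene SYT9 (3.38-fold, 95% interval 1.96 to 6.25) and the complexin CPLX2 (3.09-fold, 95% interval 1.90 to 5.31). Without nuclei with a C-fibre marker, SLC17A6 and CPLX2 no longer reached 2-fold, with log2 ratios of 0.55 and 0.19 in place of 1.70 and 1.63, and SYT9 fell short after thinning (0.75 in place of 1.76). SNAP25, a core protein of vesicle fusion, stood at 1528 against 692 CPM and was 2.21-fold (95% interval 1.99 to 2.46) higher on the NTRK3 side, with SV2B, a synaptic vesicle glycoprotein, 2.60-fold (95% interval 2.09 to 3.25) higher. SNAP25 lay close to the 2-fold limit, and its log2 ratio of -1.14 was -0.76 without nuclei with PVALB. Of 6 neuropeptide and processing genes measured, 2 were at least 2-fold higher on the NTRK2 side, NMB and TAC1, and none on the NTRK3 side (median log2 ratio 0.57). TAC1, which encodes substance P, stood at 367 against 158 CPM, compared with 1771 CPM in the SCN10A nuclei, and at least 2 UMIs were present in 61 of 174 and 17 of 66 nuclei.

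Of 13 neurotrophic and cytokine receptor genes measured, 5 were at least 2-fold higher on the NTRK2 side and none on the NTRK3 side, beside 16.9% and 10.2% of all genes, with a median log2 ratio of 0.58 (0.04 for all genes). RET, the signalling receptor for GDNF-family ligands that marks early-born A-beta mechanoreceptors in mouse, stood at 429.7, 273, 261, 134 and 171 CPM in the 5 endings of the NTRK2 side and 232, 111, 83.2, 95.2 and 102 CPM on the NTRK3 side. The 232 CPM of the 3 nuclei in ending 1 overlapped the NTRK2-side range. Overall RET was 2.55-fold (95% interval 1.89 to 3.50) higher, a log2 ratio of 1.35 that was 0.73 when members had 0 UMIs of KIT and SCN10A. In the SCN10A nuclei RET stood at 577 CPM, above the 283 CPM of the NTRK2 side. IL6ST, the shared signal transducer gp130 of the interleukin 6 family, stood at 304 against 105 CPM (2.90-fold, 95% interval 2.14 to 4.01). OSMR, the oncostatin M receptor, stood at 94.1 against 21.3 CPM (4.41-fold, 95% interval 2.29 to 9.50), and its log2 ratio of 1.81 in ending 3 was 0.61 in ending 6. After thinning, a single random draw, the log2 ratio of OSMR was 0.88, under 2-fold, compared with 2.14 over all nuclei. A separate draw left OSMR in 13 of 167 NTRK2-side and 1 of 66 NTRK3-side nuclei, so its thinned values rest on few UMIs.

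Of 37 transcription factors measured, 7 were at least 2-fold higher on the NTRK2 side and 5 on the NTRK3 side, with a median log2 ratio of 0.15. ETV1, which mouse proprioceptors need to connect in the spinal cord, stood at 862, 484, 222, 190.4 and 255 CPM in the 5 endings of the NTRK3 side and 58.8, 25.5, 49.0, 52.0 and 46.7 CPM on the NTRK2 side, with no overlap. ETV1 was 9.19-fold (95% interval 6.54 to 13.2) higher on the NTRK3 side, a log2 ratio of -3.20 that was -2.53 without ending 3 and -4.24 in ending 3 alone. CUX2, a homeobox factor, was 12.6-fold (95% interval 9.20 to 17.5) higher on the NTRK3 side, and ESRRG, an orphan nuclear receptor, 4.69-fold (95% interval 3.70 to 5.98), at 489 against 104 CPM. RUNX3, which keeps the TrkC neuron identity in mouse, had 1 UMI on the NTRK2 side and 17 on the NTRK3 side, 1.01 against 36.3 CPM, too few for a ratio here. RORA, an orphan nuclear receptor, stood at 829.7 against 245 CPM and was 3.38-fold (95% interval 2.78 to 4.15) higher on the NTRK2 side, and the paired-type homeobox gene DRGX was 3.32-fold (95% interval 1.92 to 6.14) higher. DRGX no longer reached 2-fold without nuclei with a C-fibre marker or after thinning, with log2 ratios of 0.29 and 0.83 in place of 1.73. The thinned ratio of DRGX is from a single random draw. A separate draw left DRGX in 22 of 167 NTRK2-side nuclei (13.2%) and 2 of 66 NTRK3-side nuclei (3.03%). FOXP2, a forkhead factor, was 2.72-fold (95% interval 1.66 to 4.69) higher on the NTRK2 side, but its log2 ratio of 1.44 was 0.17 without ending 3 and 0.46 without the nuclei with TRPM8. The level of FOXP2 was higher on the NTRK2 side in 3 of 5 endings. Its share of nuclei had the opposite order, 23.0% on the NTRK2 side and 27.3% on the NTRK3 side, or 10.8% and 4.55% after thinning. MAF, a factor of A-beta mechanoreceptors in mouse, stood at 42.5 against 29.9 CPM, with a ratio interval that included 1. For CALB1, with 0 and 1 UMI, no ratio is given.

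Axonal and calcium-binding genes were split, with 5 of 23 measured members at least 2-fold higher on the NTRK2 side, 6 on the NTRK3 side and a median log2 ratio of -0.29. PRPH, the intermediate filament peripherin of small neurons, stood at 1587, 345, 636, 379 and 280.3 CPM in the 5 endings of the NTRK2 side and 365, 78.3, 153, 63.5 and 34.0 CPM on the NTRK3 side, 7.30-fold (95% interval 5.40 to 10.1) higher, with overlap through ending 1. Without ending 1 its log2 ratio of 2.87 was 2.23. ATP1B1, a beta subunit of the sodium pump, stood at 1109 against 382 CPM and was 2.90-fold (95% interval 2.48 to 3.42) higher on the NTRK2 side. NFASC, a cell adhesion molecule of the node of Ranvier, and VSNL1, a calcium sensor, were 2.71-fold (95% interval 2.37 to 3.12) and 2.89-fold (95% interval 2.46 to 3.40) higher on the NTRK3 side. In nuclei with under 1% mitochondrial UMIs, ATP1B1 and NFASC fell under 2-fold (log2 ratios 0.43 and -0.75 in place of 1.54 and -1.44), as did VSNL1 without nuclei with PVALB (-0.86 in place of -1.53). PVALB, the calcium buffer parvalbumin of proprioceptors, stood at 1923, 78.3, 208, 254 and 136 CPM in the 5 endings of the NTRK3 side and 80.8, 7.66, 65.3, 7.42 and 7.79 CPM on the NTRK2 side, 7.76-fold (95% interval 5.18 to 11.9) higher. A single nucleus, in ending 1, held 49.1% of the PVALB UMIs of the NTRK3 side, over the 25% limit, so that PVALB did not meet the stricter rule. Without this nucleus its log2 ratio of -2.96 was -2.05. The lowest level of the NTRK3 side lay just under the highest of the NTRK2 side.

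NEFH, the heavy neurofilament of myelinated neurons, was level over all nuclei at 1784 against 1790.5 CPM, yet it did not behave alike in the endings. It stood at 3313, 1008, 4031, 1047 and 607 CPM in endings 1, 3, 4, 5 and 6 of the NTRK2 side and at 8255, 576, 2219, 794 and 2378 CPM on the NTRK3 side. The log2 ratio was 0.80 within ending 3, higher on the NTRK2 side, and -1.96 within ending 6, higher on the NTRK3 side. The pooled value of -0.01 is therefore an average over endings that pointed in opposite directions, and it was 0.35 without the NTRK3-side nucleus with the most PVALB.

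Cadherins and synaptic adhesion genes were the list with the most measured members. Of these 50, 16 were at least 2-fold higher on the NTRK3 side and 6 on the NTRK2 side, beside 10.2% and 16.9% of all genes, with a median log2 ratio of -0.40. OPCML, a membrane-anchored adhesion protein of the IgLON family, stood at 530.5, 3759, 1969, 1714 and 2565 CPM in the 5 endings of the NTRK3 side and 202, 523, 277, 794 and 857 CPM on the NTRK2 side, 5.68-fold (95% interval 5.12 to 6.31) higher, with the level of ending 1 overlapping. CNTNAP5, of the contactin-associated family, was 6.26-fold (95% interval 4.98 to 7.93) higher on the NTRK3 side. CDH8, a cadherin, stood at 368 against 109 CPM and was 3.38-fold (95% interval 2.52 to 4.63) higher on the NTRK2 side, a log2 ratio of 1.76 that was 0.99 without ending 3. CNTN6 and FLRT2, both neuronal adhesion proteins, were 2.91-fold and 3.16-fold higher on the NTRK2 side. The log2 ratio of CNTN6, 1.54, was 2.54 without ending 3 and 0.90, under 2-fold, in ending 3 alone.

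Guidance genes were split, with 8 of 29 measured members at least 2-fold higher on the NTRK2 side and 6 on the NTRK3 side, and the median log2 ratio was 0.00. SEMA3E, a secreted semaphorin, stood at 316, 393, 261, 193 and 148 CPM in the 5 endings of the NTRK2 side and 66.3, 41.5, 27.7, 31.7 and 34.0 CPM on the NTRK3 side, with no overlap, 7.93-fold (95% interval 4.93 to 13.6) higher. NRP1, a semaphorin coreceptor (142 against 40.5 CPM), and NTNG1, the axon guidance protein netrin G1 (327 against 96.0 CPM), were also higher on the NTRK2 side, again with no overlap. The log2 ratio of NTNG1, 1.77, was 2.61 without ending 3, and that of NRP1, 1.80, was 0.78 after thinning, under 2-fold. SLIT2, the repulsive ligand of Robo receptors, stood at 497, 1304, 735, 1174 and 849 CPM in the 5 endings of the NTRK3 side and 121, 158, 196, 89.1 and 101 CPM on the NTRK2 side, with no overlap, 7.80-fold (95% interval 6.42 to 9.52) higher. PLXNA2, a semaphorin receptor, was 3.44-fold (95% interval 2.38 to 5.02) higher on the NTRK3 side. The 2 measured HOX genes did not differ by 2-fold.

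**Figure D4:**
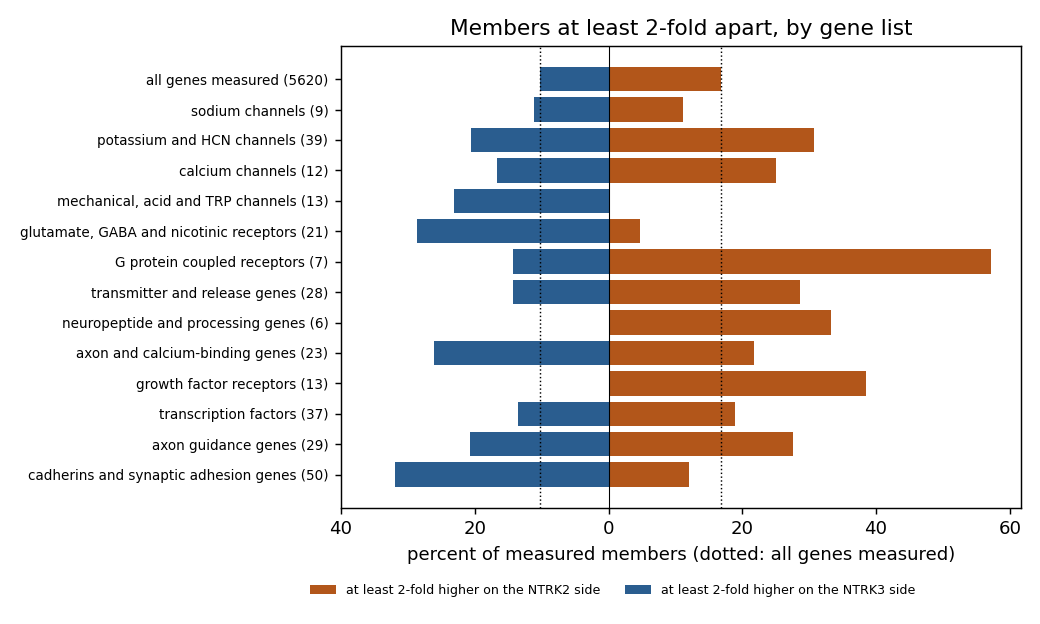
Percent of the measured members of functional lists (number measured in brackets) that were at least 2-fold higher on the NTRK2 side (orange, right) or the NTRK3 side (blue, left). Dotted lines mark all 5620 genes, 16.9% and 10.2%. The G protein coupled receptors, neuropeptide genes, sodium channels and calcium channels rest on 7, 6, 9 and 12 members.

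The NTRK2 side was not uniform. TRPM8, the channel of cold-sensing neurons, had at least 2 UMIs in 21 of its 174 nuclei (12.1%), from endings 1, 3, 5 and 6 (3, 10, 4 and 4 nuclei), and in 2 of the 66 NTRK3-side nuclei (3.03%). At 1 UMI or more the sides were closer, with TRPM8 in 34 of 174 (19.5%) and 10 of 66 nuclei (15.2%), and in 20.1% of the SCN10A nuclei. After thinning the shares were 11.4% (6.99 to 17.2) on the NTRK2 side and 4.55% (0.947 to 12.7) on the NTRK3 side. These intervals overlapped, and the SCN10A nuclei held 5.25%. In the 21 NTRK2-side nuclei with at least 2 UMIs of TRPM8, PIEZO2 stood at 29.8 CPM (6.14 to 87.0), compared with 1480.3 CPM (1401 to 1563) in the other 153. NEFH stood at 367 against 1944 CPM, and ARHGAP28 at 29.8 against 559 CPM. SKOR2 had no UMI in the TRPM8 nuclei, where 3 counts would be 29.8 CPM, and stood at 145 CPM in the others. FOXP2, CDH8 and KCNQ5 were higher with TRPM8, at 556, 645 and 447 CPM against 59.7, 337 and 86.7 CPM. The median depth was alike, 3868 and 3885 UMIs. The choice of TRPM8 was made after the data had been seen.

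OSMR at 2 UMIs or more marked another 21 nuclei of the NTRK2 side, with a median of 12246 UMIs, and none of the 66 NTRK3-side nuclei, whose median was 5107 UMIs. At 1 UMI or more, OSMR was present in 49 of 174 (28.2%) and 10 of 66 nuclei (15.2%), and in 40.6% of the SCN10A nuclei. After thinning the shares of the sides were 7.78% and 1.52%. These deep nuclei held PIEZO2 (1407 CPM), NEFH (2372 CPM), ARHGAP28 (448 CPM) and SKOR2 (128 CPM). IL31RA, the partner of OSMR in the interleukin 31 receptor, stood at 3.29 CPM in them, from 1 UMI, compared with 386 CPM in the SCN10A nuclei.

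On the NTRK3 side, PVALB divided the nuclei for neurofilament more than for the genes that separated the sides. At least 1 UMI of PVALB was present in 26 of 66 nuclei (39.4%), compared with 14 of 174 (8.05%) on the NTRK2 side and 7.95% of the SCN10A nuclei. After thinning to 1000 UMIs the shares were 7.58% (2.51 to 16.8) on the NTRK3 side and 3.59% (1.33 to 7.66) on the NTRK2 side, with intervals that overlapped. The 26 nuclei were deeper (median 7252.5 UMIs) than the other 40 (3514.5 UMIs), and the part of depth in what follows was not tested. Most of the 40 came from ending 3 and most of the 26 from other endings. The part of the endings was not tested either, and a value within ending 3 is given for NEFH alone. NEFH stood at 2667 CPM (2479 to 2865) with PVALB and 488 CPM (393 to 599) without, at 2066 CPM with PVALB once the nucleus with the most PVALB was left out, and within ending 3 at 982 against 398 CPM. NXPH1, a neurexin-binding protein of the proprioceptor list, stood at 207 against 90.2 CPM. ETV1 (403 and 371 CPM), ESRRG (471 and 515 CPM) and FRMPD4 (1756 and 1984 CPM) were present in both. CDH12 was lower with PVALB, at 375 against 695 CPM. Its level on this side also differed by ending, at 746 CPM in ending 3 and at most 433 CPM in the others, so PVALB and ending cannot be told apart here.

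Nucleus by nucleus, most members held more of the genes of their own side. UMIs of the 12 NTRK2-side genes outnumbered those of the 12 NTRK3-side genes in 157 of 174 NTRK2-side nuclei (90.2%), and the reverse held in 58 of 66 NTRK3-side nuclei (87.9%). Per 10000 UMIs, the 12 NTRK2-side genes had a median of 31.9 in NTRK2-side nuclei (0 to 180.4) and 4.25 in NTRK3-side nuclei (0 to 54.1). The 12 NTRK3-side genes had a median of 5.31 (0 to 74.9) and 80.1 (0 to 263). Both sets had at least 3 UMIs in 78 NTRK2-side (44.8%) and 25 NTRK3-side nuclei (37.9%). In 12 nuclei of the NTRK2 side and 7 of the NTRK3 side the other set was the larger one. The genes were chosen on these same nuclei, and this is a description of the separation, with no test.

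**Figure D5:**
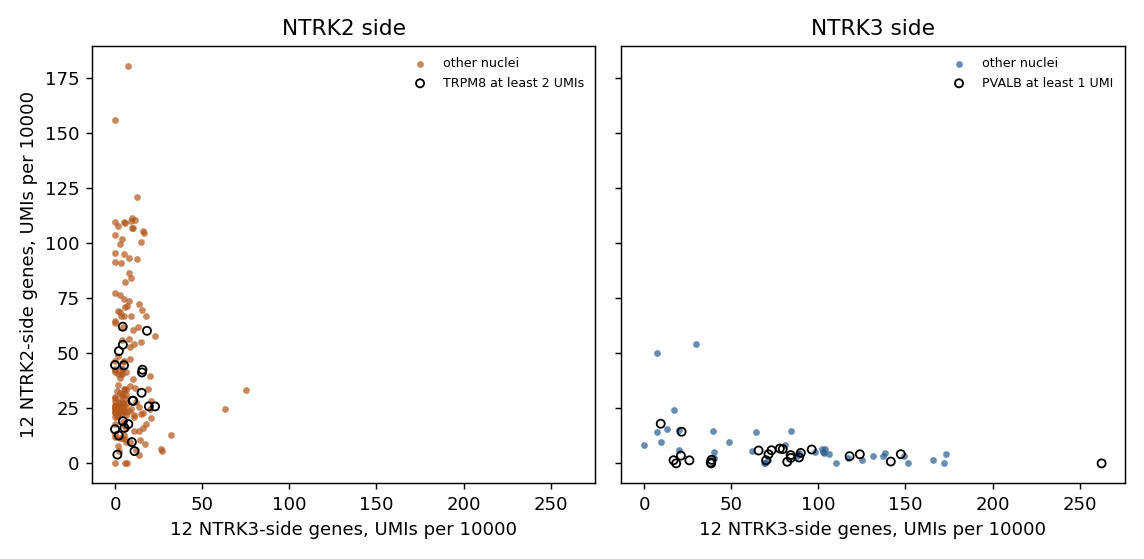
Each point is a nucleus of the NTRK2 side (left) or the NTRK3 side (right), placed by its UMIs per 10000 of the 12 NTRK3-side genes (x axis) and of the 12 NTRK2-side genes (y axis). Open circles mark nuclei with at least 2 UMIs of TRPM8 (left) or at least 1 of PVALB (right); most NTRK2-side nuclei lie along the y axis and most NTRK3-side nuclei along the x axis.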

How the data were processed

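RNA of nuclei from thoracic and lumbar ganglia of 5 pigs was measured. The authors deposited 1 table of raw UMI counts, 30477 genes by 2189 nuclei, with no normalization. The tools Cell Ranger 6.0.1 and Seurat and the build Sscrofa11.1 are listed, with no role given, per the submitters' processing notes, and no source used here says how nuclei were filtered. No nucleus was removed here and no doublet caller was run. Of the Ensembl identifiers, 773 received a symbol from a gene name table, and gene positions were read from a RefSeq table of Sscrofa11.1. No column tied nuclei to pigs, so nuclei were not treated as replicates and no p-value was computed, and deposited UMI counts do not correct for free RNA captured with nuclei.

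UMI counts were summed over the nuclei of each side and given as CPM of all UMIs of that side (17277376 in the whole table). Levels carry exact Poisson, ratios exact conditional binomial and shares exact Clopper-Pearson intervals at 95%, in Python 3.11.15 with scipy 1.17.1, pandas 2.3.3 and numpy 2.4.6. CPM were not divided by gene length, so ratios compare sides and not genes. Ratios were taken where a gene reached 50 UMIs in total, leaving out NTRK2, NTRK3, KIT and SCN10A. Ratios within an ending needed 10 nuclei a side and 10 UMIs, with 0.5 counts added a side, and were also combined over endings by the Mantel-Haenszel rate ratio.

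Named genes had at least 100 UMIs, at least 2-fold in both the pooled and the combined ratio, the same direction in endings 3 and 6 and no nucleus with over 25% of the UMIs of the higher side. The first 12 in each direction were named, up to 3 in each direction from each of 14 functional lists, and 12 genes of touch and muscle afferents whatever their values. SCN7A, SCN8A, TAC1, NXPH1, TRPM8 and IL31RA, and the members counted only as at least 2-fold apart, were named after their values were seen. The members and the lists were chosen with earlier results of these data known. Ratios and intervals were computed on simulated counts with known folds, drawn with counting error and an effect of ending 3. That setting held no further variation between nuclei or pigs, so it cannot show how the intervals fare under such variation. Alternatives included thinning, other limits of the rule, each ending left out and scaling by the TMM method of edgeR 4.0.16 in R 4.3.3. Thinning was a single random draw, made separately for shares and for ratios. Under an alternative a named gene needed 10 UMIs for a ratio, fewer than the 50 above. Some genes that the rule named are not reported here. Sequences were not used here.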

Additional observations from a re-analysis of the deposited data

How the results depend on the processing

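Of 64 genes named for their values, 63 kept their direction under each alternative that gave a value, and 44 stayed at least 2-fold apart in all of them. The exception was FOXP2, whose log2 ratio reversed to -0.028 without nuclei with a C-fibre marker. That filter left out 107 of 174 NTRK2-side and 38 of 66 NTRK3-side nuclei, so its ratios rest on fewer UMIs. The counts of genes at least 2-fold apart moved more. The 947 genes higher on the NTRK2 side were 594 by the Mantel-Haenszel ratio over endings, 605 with at least 10 per 10000 of the own receptor, and 525 to 970 with each barcode ending left out. The 573 genes higher on the NTRK3 side were 436 to 613 with each ending left out. The 2 counts were 122 and 106 after thinning to 1000 UMIs, which left 824 genes to measure, 1587 and 962 from at least 20 UMIs, 250 and 211 from at least 200 UMIs, and 363 and 221 at 3-fold. Alternatives chosen after seeing the data gave 132 and 107 of 1328 genes without nuclei with a C-fibre marker, 263 and 311 of 2977 genes in nuclei with under 1% mitochondrial UMIs, and 328 and 376 of 2567 genes in ending 3 alone. The share of calls on the NTRK2 side, 62.3%, was 45.8% under that mitochondrial limit and 46.6% in ending 3 alone. Also chosen after seeing the data, leaving out nuclei with TRPM8 gave 912 and 528, leaving out nuclei with PVALB 1082 and 527, and leaving out the NTRK3-side nucleus with the most PVALB 1092 and 601. Totals without the mitochondrial genome raised the median log2 ratio of all genes from 0.04 to 0.12, and TMM scaling raised it to 0.11; both kept the direction of the 64 named genes. The number of NTRK2-side nuclei was 85 to 167 with each ending left out and 114 with at least 10 per 10000, and that of NTRK3-side nuclei 25 to 63 and, with 0 UMIs of KIT and SCN10A, 38. No paired analysis was possible because the columns carry no pig numbers. A level of the NTRK3 side that rests on 3 UMIs or fewer cannot be told from background at this depth.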

Other observations

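Transcripts of 54 ribosomal proteins made up 0.573% of the UMIs of the NTRK2 side and 0.224% of those of the NTRK3 side. In endings 1, 3, 4, 5 and 6 the share was 1.34%, 0.319%, 0.628%, 0.171% and 0.107% on the NTRK2 side and 1.21%, 0.177%, 0.204%, 0.127% and 0.0960% on the NTRK3 side. It was thus the higher on the NTRK2 side in each of the 5 endings, and both sides had their highest share in ending 1.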
